A study of Mus musculus with 12 samples.

Results

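Blastocysts of the groups labelled HFD were compared with those of the groups labelled ND over all treatments and across all genes. The comparison took in every library of the series, 6 of HFD against 6 of ND, and 14743 of the 24411 genes in the deposited tables had enough counts to be tested. Each library held poly(A) RNA of a pool of 10 blastocysts from ICR mice, an outbred stock, with the genotype given as wild type. Oocytes of superovulated females were fertilised in vitro, and the embryos grew in KSOM, a medium for mouse embryos, until 96 hpi. Each diet had 3 treatments with 2 libraries apiece: C, the control, then siNT, given siRNA without a target, and siNampt, given siRNA to Nampt, which encodes the enzyme that limits NAD synthesis from nicotinamide. The siRNAs were electroporated into zygotes at 3 to 6 hpi, and the sources used here do not give whether C zygotes were electroporated too. The labels do not spell out ND and HFD or say how long a diet lasted and which parent received it. The series title speaks of obese and normal weight mice. All embryos of both groups were fertilised and grown outside the mother. Replicate numbers 1 and 2 are also the samples' batch labels, so each HFD library has an ND partner of the same treatment and batch, giving 6 pairs. Nothing in the labels says what a batch was or whether pools came from separate fertilisations, so p-values measure the spread between pools.

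Totals lay between 42473130 and 50503059 expected counts per library, and between 16463 and 17924 genes were detected in each. Of the markers of the blastocyst lineages 22 of 24 trophectoderm genes, 26 of 26 genes of the inner cell mass and epiblast, and 24 of 24 of the primitive endoderm had enough counts to be tested. The summed level of the inner cell mass and epiblast list was 16213 CPM or more in every library, and that of the primitive endoderm list 1698 CPM or more (CPM being the counts scaled to library size). The beta-globin genes Hbb-bs, Hbb-bt and Hbb-b1 and the sperm genes Tnp1, Smcp and Spata18 were at 0 everywhere. Other members of those lists were detected, and 6 of 12 sperm genes and 4 of 10 blood cell genes had enough counts to be tested. The tested sperm genes summed to 37.0 to 56.9 CPM in ND and 41.9 to 58.4 CPM in HFD. The tested blood cell genes summed to 1.92 to 5.61 CPM in ND and 1.85 to 6.15 CPM in HFD. The summed level of 8 cumulus and granulosa cell markers was 107 to 311 CPM in ND and 115 to 264 CPM in HFD. Nampt, the targeted gene, stood at 53.9 and 37.7 CPM in ND siNampt against 54.2 and 38.2 CPM in ND C, and at 50.3 and 44.0 CPM in HFD siNampt against 67.0 and 57.3 CPM in HFD C. In ND the libraries labelled siNampt were therefore close to C of the same batch, and siNT had 74.6 and 49.4 CPM. The 3 ND libraries of batch 2 and HFD_siNampt of batch 2 stood apart on the first principal component (16.4% of the variance), at 21.1 to 52.5 against -9.24 or below in the other 8. Leaving out all 4 would leave diet to be compared in batch 1 alone, and values by batch are given below. Of the 4, ND_C, ND_siNampt and HFD_siNampt were also lowest in Y-linked RNA. Without these 3 libraries 0 genes differed by diet past the threshold and 490 were at an unadjusted p under 0.05.

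The preimplantation embryo moves from lactate and pyruvate to glucose as it forms a blastocyst, and it makes its own cholesterol and fatty acids for new membrane. Cholesterol is built from acetyl-CoA through mevalonate and squalene, and the genes of this route are switched on together by SREBP2 when sterol in the endoplasmic reticulum is low. Oocytes of obese mice are known for more stored lipid, altered mitochondria and stress of the endoplasmic reticulum, and the lists below cover these processes.

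No gene differed by diet over all treatments past an adjusted p of 0.05. With edgeR's quasi-likelihood test, treatment and batch as covariates and Benjamini-Hochberg adjustment, 0 of 14743 genes (0.0%) passed. At an unadjusted p under 0.05 there were 576 genes (3.91%), 311 higher in HFD (2.11%) and 265 lower (1.8%). The smallest adjusted p was 0.465. DESeq2 called 6 genes, with 716 at an unadjusted p under 0.05, and limma on TPM called 0 with 654. All 6 pairs had the same direction for 399 genes (2.71%), 198 higher in HFD (1.34%) and 201 lower (1.36%). For 14 genes (0.095%) the 6 HFD libraries did not overlap the 6 ND libraries, 7 above (0.0475%) and 7 below (0.0475%). Those above, named after their values were seen, were Rnf225, Pls1, Vat1, Pcyt1b, Dapk2, Akap17b and 6330416G13Rik, and those below were 1500015A07Rik, 5730408K05Rik, B930059L03Rik, Gm3893, Morn1, Ppcdc and Zfp692. Within single treatments 0 genes passed, and 3.53% in C, 3.45% in siNT and 4.25% in siNampt were at an unadjusted p under 0.05.

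**Figure D1:**
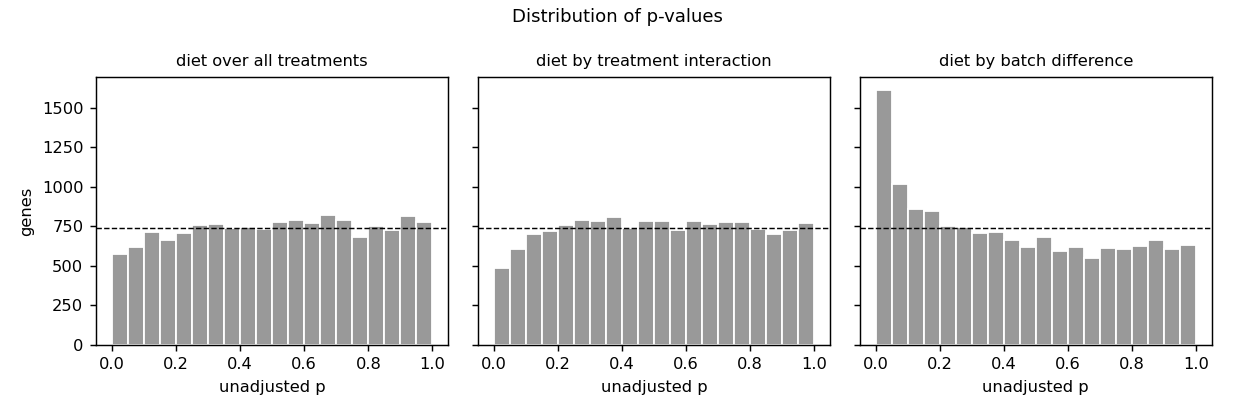
Number of genes (y axis) by unadjusted p (x axis, bins of 0.05) for diet over all treatments, for the interaction of diet and treatment, and for the difference in the diet effect between batches. The dashed line is an even spread of 737 genes per bin; the lowest bin holds 576, 486 and 1615 genes.

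With the 12 pools taken as independent, the intervals around these differences were narrow for most expressed genes. Libraries of the same diet and batch were not treated as sets. Differences between pairs followed batch (below), so the intervals may be too narrow. For the 8483 genes averaging 5 CPM or more, the median standard error of the log2 fold change was 0.124. The 95% interval lay wholly within 2-fold in either direction for 98.4% of them and within 1.5-fold for 89.0%. Diet took a median of 3.71% of a gene's variance, with 1 of 11 degrees of freedom (9.09%). Batch took 6.75% with the same share of freedom, and treatment took 19.2% with 18.2%. The share of freedom is what a term without effect takes on average, and its median over genes is lower than that. The median that a term without effect would take was not computed, so these shares do not place diet or batch above or below chance.

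Rbm45, which encodes an RNA-binding protein, had the smallest p of all genes. It had 2.19 CPM in the lowest, 6.21 in the median and 11.5 in the highest ND library, against 1.26, 1.79 and 2.20 CPM in HFD. The 6 HFD libraries lay close together and the ND libraries were spread out, and the groups overlapped only through ND_siNampt of batch 1. The log2 fold change was -1.80 (SE 0.302, 95% interval -2.44 to -1.15), and HFD was lower in 6 of 6 pairs. edgeR's adjusted p was 0.465 and did not pass. The exact two-sided permutation test over 924 orders of the libraries gave p = 0.00433, and the exact sign-flip test over the 6 pairs gave p = 0.0313, the smallest that 6 pairs allow. Rbm45 was singled out with earlier results of these data known, so these p-values are not independent evidence. Without ND_siNampt of batch 1 it passed edgeR's test (edgeR adjusted p = 0.0023), and across 26 alternatives the adjusted p ran from 8.18e-06 with DESeq2 to 1.00. The gene lies on the + strand of chromosome 2, 76369984 to 76383768 in GRCm38 (mm10), and is protein coding.

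The next genes by p included 2 long noncoding RNAs that were lower in HFD in 6 of 6 pairs. Snhg20, a host gene of small nucleolar RNAs, ranged from 20.9 to 32.8 CPM in ND (median 27.1) and from 13.4 to 23.4 CPM in HFD (median 18.3). Its log2 fold change was -0.58 (SE 0.112), with -0.59 in batch 1 and -0.57 in batch 2. Neat1, the RNA on which paraspeckles assemble in the nucleus, ranged from 23.6 to 43.1 CPM in ND (median 33.1) and from 14.1 to 32.4 CPM in HFD (median 17.5). Its log2 fold change was -0.74 (SE 0.160), the same in both batches. The Neat1 values are per gene and from poly(A) RNA, so they do not tell forms of this RNA apart. Both sets of libraries overlapped, and both genes had an adjusted p of 0.952 in edgeR while DESeq2 called both.

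Txnip, the thioredoxin-interacting protein whose gene is induced by glucose and which restrains glucose uptake, had ND values that lay close together. It ranged between 60.6 and 66.6 CPM in ND (63.3 ± 2.51, SD, n = 6) and between 40.3 and 61.1 CPM in HFD (48.4 ± 7.60, SD, n = 6). Only HFD_siNampt of batch 1, at 61.1 CPM, reached the ND range. The log2 fold change was -0.40 (SE 0.101), with HFD lower in 6 of 6 pairs. Tuft1, which encodes tuftelin, lay between 122 and 152 CPM in ND and between 100 and 122 CPM in HFD, a log2 fold change of -0.34 (SE 0.084), lower in 6 of 6 pairs, with 1 library of each diet meeting at 122 CPM. Acsl6, an acyl-CoA synthetase that activates long-chain fatty acids, had a median of 20.9 CPM in ND and 15.2 CPM in HFD (log2 fold change -0.46, SE 0.108, lower in 6 of 6 pairs). None of the 3 passed (adjusted p = 0.952 in edgeR).

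**Figure D2:**
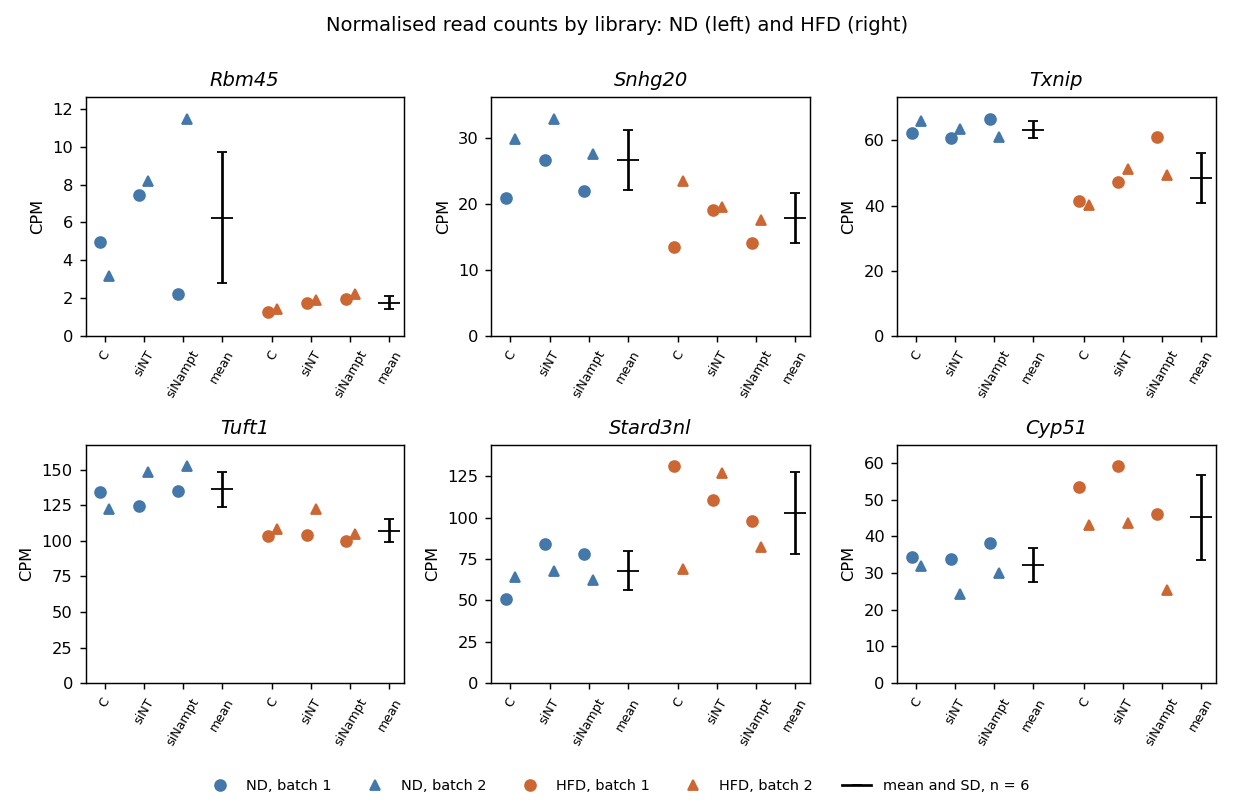
CPM (y axis, from 0) of 6 genes in each library by treatment (x axis), with ND on the left of each panel and HFD on the right, circles for batch 1 and triangles for batch 2, and the mean and SD of 6 libraries in black. HFD values of Rbm45 sit between 1.26 and 2.20 CPM, and Cyp51 in HFD_siNampt of batch 2, at 25.3 CPM, lies within the ND range.

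Genes with higher values in HFD included Stard3nl, a late endosomal membrane protein at contacts with the endoplasmic reticulum. It ranged from 51 to 84.3 CPM in ND (median 66.0) and from 68.7 to 131 CPM in HFD (median 104), with a log2 fold change of 0.59 (SE 0.139) and HFD higher in 6 of 6 pairs. Rnf225, a RING finger gene, was scarce and did not overlap between diets, at 0.239 to 0.934 CPM in ND and 0.936 to 2.48 CPM in HFD (log2 fold change 1.29, SE 0.327). Pls1, which encodes the actin-bundling protein plastin 1, did not overlap either, at 2.53 to 3.68 CPM against 3.80 to 9.40 CPM (0.76, SE 0.195). Pls3, the X-linked relative that encodes plastin 3, differed the other way, at 122 to 224 CPM in ND and 76.8 to 165 CPM in HFD (-0.63, SE 0.144, lower in 5 of 6 pairs). The 2 plastin genes thus differed in opposite directions, and neither passed (adjusted p = 0.952 in edgeR), while DESeq2 called Pls3. In C, siNT and siNampt the log2 fold change was -0.23, -0.49 and -1.19 for Pls3 and 1.15, 0.73 and 0.40 for Pls1. For Pls3 edgeR's test of that difference between treatments gave an unadjusted p of 0.00569 and an adjusted p of 0.998.

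Other genes among the 20 of smallest p were each at an adjusted p of 0.952. Lower in HFD were the X-linked Tceal8 (log2 fold change -1.74, SE 0.378), the tetraspanin Cd81 (-0.63, SE 0.142), Tex13 (-2.10, SE 0.491), D7Ertd143e (-0.59, SE 0.148), 1500015A07Rik (-0.85, SE 0.212) and Magef1 (-0.87, SE 0.215). Tceal8 varied widely, from 5.99 to 87.0 CPM in HFD and from 49.5 to 167 CPM in ND, and Cd81 reached 86.5 CPM in HFD_siNampt of batch 2, within its ND range of 34.2 to 88.8 CPM. The annotation (GENCODE M21) lists Magef1 as a processed pseudogene that is transcribed and 1500015A07Rik as an antisense RNA, and the strand of the reads is not given, so both values are uncertain. Higher in HFD were Csta1 (0.91, SE 0.205), Gstm1 (0.60, SE 0.142), Hist1h4d (1.54, SE 0.392) and Xlr4a (1.25, SE 0.323), which encode a stefin, a glutathione transferase, a histone H4 and an X-linked lymphocyte-regulated protein. Each of these 4 has close copies in the genome among which reads can be split, so their values are uncertain too. Hist1h4d was also scarce in this poly(A) RNA, at 272 counts in all ND libraries and 835 in HFD. In batches 1 and 2 Csta1 had 0.46 and 1.36, Gstm1 0.92 and 0.27, Hist1h4d 2.42 and 0.68, and Xlr4a 1.07 and 1.41. Of the genes lower in HFD, Tex13 had -0.99 and -3.37 and Magef1 -1.25 and -0.49. None of these differences between batches passed (adjusted p of 0.170 or more in edgeR). DESeq2 called Cd81 and Tex13 by diet. Xlr4a was at 42.6 CPM or above in 5 HFD libraries and at 34.9 CPM or below in every ND library, and HFD_siNampt of batch 1 had 20.7 CPM. Of the 18 genes among these 20 with a position in the annotation, 3 are on the X chromosome, against 543 of 14141 (3.84%) over all genes tested with a position.

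Genes of cholesterol synthesis had modestly higher values in HFD. Of 10 mevalonate pathway genes 8 were higher and 2 lower, the median log2 fold change being 0.19. Of 12 genes from squalene to cholesterol 10 were higher and 2 lower, the median being 0.21. Over all genes tested 7544 of 14743 were higher and the median was 0.00. No member passed the test (0 of 22), 6 of 22 were at an unadjusted p under 0.05, all higher in HFD, and the share over all genes was 2.11% in that direction. The medians were 0.21 in batch 1 and 0.18 in batch 2 for the mevalonate list, and 0.28 and 0.12 for the later steps. In both lists the median was higher in 5 of 6 pairs, and the exception was siNampt of batch 2, at -0.19 and -0.20. These lists were chosen with earlier results of these data known.

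The promoters of this pathway carry sites for SREBP2 and, as a frequent companion, CCAAT boxes bound by NF-Y. A sterol regulatory element core, TCACNCCAC on either strand, lay within the 250 bases before the RefSeq start in 1 of 16 pathway genes with a promoter in the RefSeq table (GRCm38.p6), and in 1.36% of the promoters of all genes tested. A CCAAT box on either strand lay in 15 of 16, against 40.8% of the promoters of all genes tested and 37.5% of all promoters in the table. No match says only that these letters are not in this window. The promoters shown are Hmgcs1, the 1 gene with the TCACNCCAC core, and Mvk and Hsd17b7, with CCAAT boxes and an unadjusted p under 0.05 for diet. They run 5′ to 3′ along the gene's strand with matches in capitals (the core in Hmgcs1, CCAAT boxes in the others), ATTGG being CCAAT on the other strand, and bases downstream of the GENCODE start are left out. Hmgcs1 is read at chr13:119690101-119690350 on the + strand, Mvk at chr5:114444019-114444268 on the + strand and Hsd17b7 at chr1:169969242-169969455 on the - strand.
Hmgcs1: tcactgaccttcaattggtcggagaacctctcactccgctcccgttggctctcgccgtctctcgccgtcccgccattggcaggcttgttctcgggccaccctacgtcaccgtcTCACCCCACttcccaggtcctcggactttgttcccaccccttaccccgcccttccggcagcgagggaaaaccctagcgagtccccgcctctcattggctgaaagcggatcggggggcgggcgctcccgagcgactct
Mvk: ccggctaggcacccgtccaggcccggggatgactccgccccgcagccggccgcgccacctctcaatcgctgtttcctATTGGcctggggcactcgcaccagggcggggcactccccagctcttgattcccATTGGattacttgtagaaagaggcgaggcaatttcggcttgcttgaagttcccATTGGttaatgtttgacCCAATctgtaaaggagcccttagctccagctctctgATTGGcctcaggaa
Hsd17b7: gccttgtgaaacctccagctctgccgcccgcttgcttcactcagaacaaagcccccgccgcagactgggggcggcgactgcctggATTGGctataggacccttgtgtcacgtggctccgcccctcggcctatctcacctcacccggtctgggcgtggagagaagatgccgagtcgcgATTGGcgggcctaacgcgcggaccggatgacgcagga
Mvk held 5 matches in its window and the stretch shown of Hsd17b7 held 2.

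Cyp51, the lanosterol demethylase which acts on the first sterol of the route, had the smallest p of the pathway. It lay between 24.4 and 38.2 CPM in ND (32.1 ± 4.67, SD, n = 6) and between 25.3 and 59.1 CPM in HFD (45.2 ± 11.5, SD, n = 6). Of the HFD libraries 5 were above every ND library, at 43.3 CPM or more, and HFD_siNampt of batch 2 was at 25.3 CPM. The log2 fold change was 0.46 (SE 0.135, 95% interval 0.17 to 0.75), a 1.38-fold difference, with an adjusted p of 1.00 in edgeR. The exact permutation test, which sets the pairing aside, gave p = 0.0433 and the exact sign-flip test over pairs p = 0.0625, with HFD higher in 5 of 6 pairs. Cyp51 too was singled out with earlier results of these data known, so these p-values are not independent evidence. By treatment the log2 fold change was 0.53 in C, 0.83 in siNT and 0.03 in siNampt, and the test of that difference between treatments gave an unadjusted p of 0.0385 and an adjusted p of 0.998. Cyp51 is protein coding and lies on the - strand of chromosome 5, 4081145 to 4104746 in GRCm38.

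The other steps of the route had smaller differences than Cyp51, in both directions. Of the early steps, Acat2 and Hmgcs1, which build the starting units, had log2 fold changes of 0.17 and 0.17. The mevalonate kinase Mvk had 0.33 (SE 0.118) and the farnesyl diphosphate synthase Fdps 0.31 (SE 0.108), while Idi1 had 0.26, Mvd 0.20, Fdft1 0.09, Pmvk -0.03 and Ggps1 -0.08. Fdps had 221 CPM or less in ND and 222 to 253 CPM in 5 HFD libraries, with 171 CPM in HFD_siNampt of batch 2. Those 5 libraries did not overlap ND. Among the later steps the squalene epoxidase Sqle had 0.33 (SE 0.141), the methylsterol oxidase Msmo1 0.31 (SE 0.130) and the ketoreductase Hsd17b7 0.32 (SE 0.142). The cyclase Lss had 0.20, Sc5d 0.22, Dhcr7 0.21, Nsdhl 0.16, 0610007P14Rik 0.06, Tm7sf2 -0.03 and Ebp -0.16. Msmo1 reached 337 CPM in HFD_C of batch 1 and was lowest of all libraries in HFD_siNampt of batch 2, at 130 CPM. None of these passed (adjusted p = 1.00 in edgeR).

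**Figure D3:**
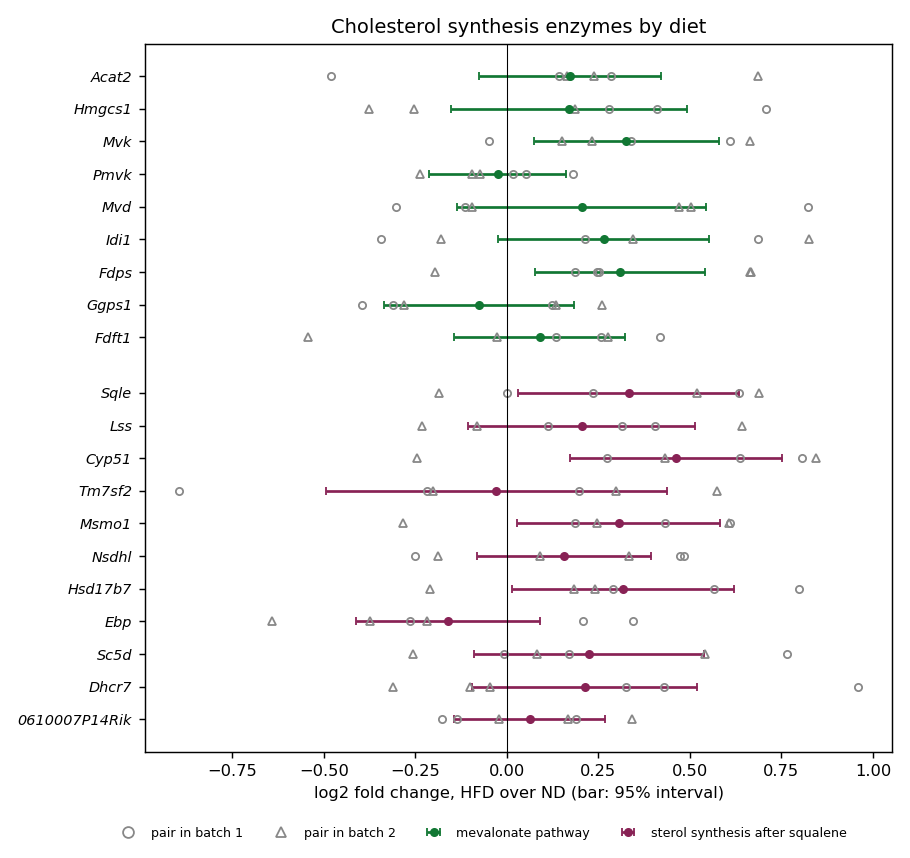
Log2 fold change, HFD over ND (x axis), of 20 cholesterol synthesis genes (y axis) with 95% intervals, green for the mevalonate pathway and purple for steps after squalene; open symbols are the log2 CPM differences of the single pairs. Intervals of Mvk, Fdps, Sqle, Cyp51, Msmo1 and Hsd17b7 lie above 0, and 1 pair of batch 2 lies below 0 for each of them except Mvk.

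Control genes of the pathway did not stand apart as a list. Of 21 genes of SREBP control and cholesterol transport 14 were higher and 7 lower, with a median of 0.07, which was 0.17 in batch 1 and -0.09 in batch 2. Srebf2, which encodes SREBP2 itself, had 0.39 (SE 0.162) and was the only member at an unadjusted p under 0.05. HFD_siNampt of batch 1, at 16.7 CPM, stood above the other HFD libraries, which had 7.51 to 9.09 CPM. The SREBP2 target Insig1 had 0.35 (SE 0.174). Insig1 was at 39.0 to 44.9 CPM in 5 HFD libraries and at 24.6 to 35.1 CPM in ND, and HFD_siNampt of batch 2 had 18.6 CPM.

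Most genes of fatty acid synthesis and activation had slightly higher values in HFD. Of 17 genes 15 were higher and 2 lower in HFD, with a median of 0.11 and 0 past the threshold. Of the 17, 4 were at an unadjusted p under 0.05, all higher in HFD, and the share over all genes was 2.11% in that direction. Acsl3, an acyl-CoA synthetase of lipid droplets, was higher in 6 of 6 pairs (0.35, SE 0.124), at 32.9 to 42 CPM in ND and 36.6 to 64.5 CPM in HFD. The stearoyl-CoA desaturases Scd2 and Scd1 had 0.48 (SE 0.202) and 0.36 (SE 0.155), and the elongase Elovl6 had 0.20 (SE 0.091). Those 3 differences lay in batch 1, where they were 1.01, 0.69 and 0.39, against -0.05, 0.02 and 0.01 in batch 2. The difference between batches had an adjusted p of 0.15, 0.324 and 0.394 for Scd2, Scd1 and Elovl6 in edgeR and did not pass.

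Lists on using, storing and carrying fat were mixed. Lipid droplet genes split 10 to 10 with a median of -0.01, and Abhd5, the activator of the lipase that opens droplets, had -0.24 (SE 0.111). Of 25 beta-oxidation genes 9 were higher and 16 lower (median -0.05), with 0 at an unadjusted p under 0.05. Of 16 genes of lipid binding and uptake 11 were higher (median 0.28, but -0.02 in batch 1 and 0.30 in batch 2). In that list Apoe, a lipid-carrying apolipoprotein, was lower in 6 of 6 pairs, at 172 to 271 CPM in ND and 136 to 271 CPM in HFD (-0.34, SE 0.117). Its highest HFD value came from HFD_siNampt of batch 2, and the other 5 HFD libraries were at 187 CPM or below. The fatty acid transporter Slc27a2 had 79 counts in all ND libraries and 166 in HFD (1.24, SE 0.553), which was 0.76 without HFD_C of batch 1. Of 21 ceramide and sphingolipid genes 15 were higher (median 0.04), with Smpd1, the acid sphingomyelinase, at 0.26 (SE 0.097).

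Mitochondrial and other metabolic lists had medians close to 0. Of 71 respiratory chain genes 20 were higher and 51 lower, with a median of -0.03, and the 78 cytosolic ribosomal protein genes split 21 to 57 with the same median. Within the respiratory chain list Atp5e, a subunit of ATP synthase, had 0.48 (SE 0.179), with 0.14 in batch 1 and 0.83 in batch 2. The TCA cycle (10 of 23 higher, median -0.01), mitochondrial dynamics (9 of 22, -0.02) and antioxidant defence (13 of 26, 0.00) lists had 0 members at an unadjusted p under 0.05. Glycolysis had 17 of 21 higher with a median of 0.06, but -0.18 in batch 1 and 0.32 in batch 2. Its monocarboxylate carrier Slc16a3 had 58 counts in all ND libraries and 18 in HFD (-1.93, SE 0.802). The NAD synthesis list had 13 of 20 higher (median 0.07) and 0 at an unadjusted p under 0.05. Insulin and IGF signalling (14 of 24, 0.03), adipokine receptors and AMPK (7 of 13, 0.00), heat shock (6 of 16, -0.04) and apoptosis (14 of 24, 0.02) had none either.

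Most trophectoderm genes had modestly higher values in HFD, mainly in batch 2, while the median summed level of the list was slightly lower. Of 22 trophectoderm genes, which mark the outer epithelium that forms the placenta, 15 were higher and 7 lower in HFD, with a median of 0.18. By batch it was -0.02 and 0.37. None passed, and 4 were at an unadjusted p under 0.05, all higher in HFD, against 2.11% of all genes in that direction. Among them were the transcription factors Gata2 (0.29, SE 0.132), Tfap2a (0.32, SE 0.143) and Gata3 (0.18, SE 0.083). Gata3 was higher in 6 of 6 pairs, at 220 to 288 CPM in ND and 275 to 325 CPM in HFD, and the groups overlapped. Gata2 differed by -0.02 in batch 1 and 0.61 in batch 2. The summed CPM of the list had a median of 9973 in ND (8031 to 12179) and 9735 in HFD (8998 to 10795), so the HFD range lay within that of ND and its median was the lower one. In a pool, more cells of a lineage and more RNA per cell cannot be told apart.

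Inner cell mass genes split 15 to 11 with a median of 0.02. Fbxo15, a pluripotency-associated F-box gene, had -0.24 (SE 0.099), and Tdh, the threonine dehydrogenase of pluripotent cells, had 0.75 (SE 0.322), with -0.11 in batch 1 and 1.62 in batch 2. Primitive endoderm genes, which mark the future yolk sac layer, had 18 of 24 higher with a median of 0.09. By batch it was -0.08 and 0.29, and by treatment -0.16 in C, 0.13 in siNT and 0.38 in siNampt. The summed CPM of the list had a median of 2094 in ND and 2067 in HFD. In that list Cited1 had 0.38 (SE 0.155), and Ttr, the transthyretin gene, had 2 counts over all ND libraries against 69 over the HFD libraries. Of the 69, 32 came from HFD_siNT of batch 1, and HFD_siNampt of batch 2 had 0. The tight junction and cavity list had a median of 0.03, and Ezr, which links membrane to actin, was lower in 6 of 6 pairs (-0.25, SE 0.085), at 70.7 to 91.5 CPM in ND and 62.4 to 76.9 CPM in HFD. None of these passed.

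**Figure D4:**
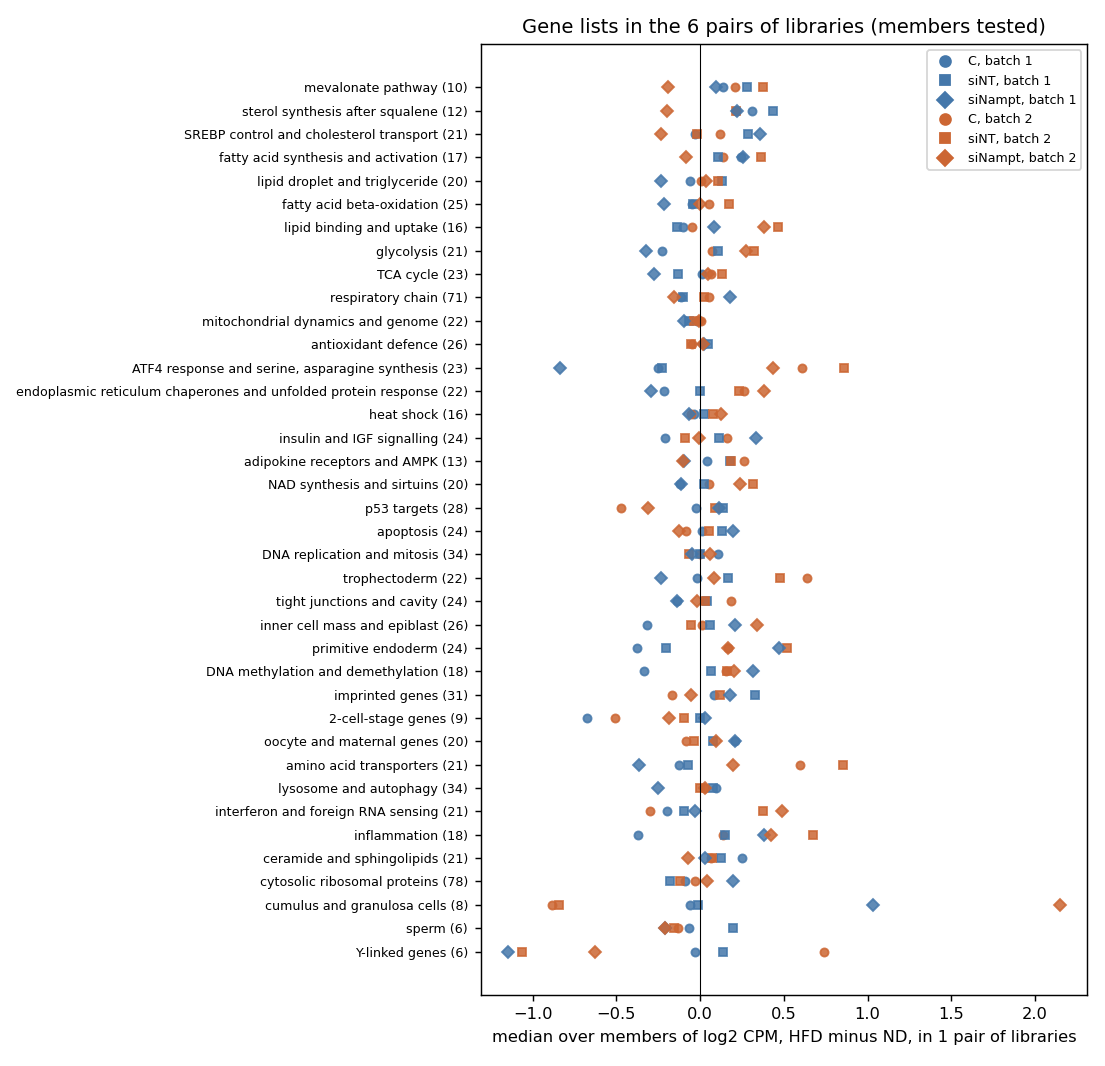
Median over the members of each gene list of the log2 CPM difference HFD minus ND (x axis) in each of 6 pairs of libraries, blue for batch 1 and orange for batch 2, with the number of members tested in brackets; the blood list, with 4 members tested, is left out. The ATF4 list is below 0 in the 3 pairs of batch 1 and above 0 in the 3 of batch 2, and both cholesterol lists are below 0 only in siNampt of batch 2.

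Lists of stress, growth and imprinting had medians from -0.12 to 0.24, and no member passed. Of 28 p53 targets 9 were higher and 19 lower (median -0.12). In that list Perp, a membrane protein that promotes cell death, was lower in 6 of 6 pairs (-0.38, SE 0.110), Btg2 had -0.29 (SE 0.126) and Gadd45a, a growth arrest gene, 0.76 (SE 0.293). DNA replication and mitosis had a median of -0.01, with Cdk2 at 0.52 (SE 0.220). Lysosome and autophagy had -0.01, with the autophagosome protein Gabarapl1 higher in 6 of 6 pairs (0.55, SE 0.198) and the sialidase Neu1 at 0.30 (SE 0.132). Of 18 inflammation genes 14 were higher (median 0.24), while Rela, a subunit of NF-kappaB, was lower in 6 of 6 pairs (-0.33, SE 0.152). Interferon genes had a median of 0.15 and 0 at an unadjusted p under 0.05. Imprinted genes had 0.08, and Kcnq1ot1, the paternally expressed noncoding RNA of the Kcnq1 cluster, was higher in 6 of 6 pairs (0.39, SE 0.117), at 19.9 to 32.1 CPM in ND and 23.0 to 45.9 CPM in HFD. DNA methylation genes (13 of 18 higher, 0.05), chaperones and unfolded protein response genes (20 of 22, 0.07) and amino acid transporters (18 of 21, 0.17) had 0 at an unadjusted p under 0.05.

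Lists of the earlier embryo and of other cells had medians in both directions, and several of their members were scarce. Of 9 genes of the 2-cell stage 4 were higher and 5 lower (median -0.12), with Sp110 at -0.84 (SE 0.305) and Pramef25, a member of a multicopy family, at 158 counts in all ND libraries against 23 in HFD. Both rest on ND_C of batch 1, which held 109 of the 158 Pramef25 counts and 1465 of the 3675 ND counts of Sp110. Without that library the log2 fold change of Sp110 was -0.51 and that of Pramef25 moved from -2.53 to -1.62. The oocyte list had a median of 0.08, and Padi6, a maternal-effect gene, had -0.67 (SE 0.227). Of 8 cumulus and granulosa markers 3 were higher and 5 lower (median -0.13). Has2, the hyaluronan synthase of cumulus cells, had 19 counts over all ND libraries and 153 over the HFD libraries. HFD_C of batch 2 held 87 of the 153 and ND_C of batch 2 held 17 of the 19, while HFD_C and HFD_siNT of batch 1 had 0. The sperm list (6 tested, median -0.16) and the blood list (4 tested, 0.25) had 0 at an unadjusted p under 0.05. All 6 Y-linked genes were lower in HFD, with a median of -0.30, and Usp9y, which has a close X-linked copy, had -0.69 (SE 0.287). The direction was not the same in all treatments, the list's median being 0.20 in C, -0.40 in siNT and -0.78 in siNampt. It was higher in HFD in 2 of 6 pairs. These genes share a chromosome, so they are not separate observations. The summed Y-linked level was 90.9 to 424 CPM in ND and 65.5 to 315 CPM in HFD. In a fit with that sum as a covariate 0 genes passed by diet, as in the fit without the 3 libraries lowest in it, and its part in the results above was not tested further.

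The diet effect was next compared between treatments. No gene passed the test of the interaction of diet and treatment (0 of 14743, 0.0%), and 486 (3.3%) were at an unadjusted p under 0.05 in edgeR. DESeq2 called 1. The genes of smallest p were Eif3j1, Fkbp6, Tpm4, Dstn and St3gal6, each at an adjusted p of 0.998 in edgeR. Tpm4, an actin-binding tropomyosin, and Dstn, the actin-severing destrin, had log2 fold changes of 0.37 and 0.56 in C, 0.11 and -0.03 in siNT, and -0.56 and -0.61 in siNampt. Fkbp6, a cochaperone, had 0.94, 0.00 and -0.56 in the same order, and the sialyltransferase St3gal6 had 0.72, -0.07 and -0.77. Eif3j1 was at 7.23 and 35.0 CPM in ND_C, 11.6 CPM in HFD_siNT of batch 1 and 23.7 CPM in HFD_siNampt of batch 1, and at 0.0252 CPM or below in the other 8 libraries. It has a near-identical copy, Eif3j2, so reads may be assigned to either.

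The diet effect was then compared between batches, a test added after the data were seen, because differences between the pairs followed batch. For 16 genes (0.109%) the diet difference in batch 2 differed from that in batch 1 past an adjusted p of 0.05 in edgeR, 8 in each direction. At an unadjusted p under 0.05 there were 1615 genes (11%), 765 above 0 (5.19%) and 850 below (5.77%). Across the 8483 genes at 5 CPM or more the log2 differences of the single pairs correlated at 0.230 to 0.353 within batch 2, at -0.084 to 0.269 within batch 1 and at -0.278 to -0.021 between batches. These are descriptions over genes, which are not independent, and the pairs share no library. Over all genes 57.1% had opposite signs in the 2 batches. Tested within single batches, in fits of 6 libraries each, 24 genes passed in batch 1 and 66 in batch 2. As contrasts of the fit to all 12 libraries, 1 (0.00678%) and 6 (0.0407%) passed, and 6.09% and 9.94% of genes were at an unadjusted p under 0.05.

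The 16 genes included several of the response to amino acid shortage and to stress of the endoplasmic reticulum. In this response the kinases PERK and GCN2 slow translation, and the transcription factor ATF4 then turns on amino acid synthesis, transport and tRNA charging. Derl3, a part of the machinery that removes misfolded proteins from the endoplasmic reticulum, was at 3.36 to 3.53 CPM in ND of batch 1 and 1.17 to 1.42 CPM in ND of batch 2. It was at 0.762 to 1.33 CPM in HFD of batch 1 and 4.14 to 5.5 CPM in HFD of batch 2. The 3 libraries of each diet and batch thus lay together, with ND of batch 1 and HFD of batch 2 high and the other 6 libraries low. The diet difference was -1.76 in batch 1 and 1.82 in batch 2, a difference of 3.58 (SE 0.41, adjusted p = 0.00255 in edgeR).

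Other genes of the response had the same signs. Herpud1, also of the degradation machinery, had log2 fold changes of -1.0 in batch 1 and 1.64 in batch 2 (adjusted p = 0.0338 in edgeR for the difference). Chac1, an ATF4 target that breaks down glutathione, had -2.53 and 3.77 (adjusted p = 0.0348), with 0.131 to 4.80 CPM in HFD of batch 1 and 2.37 to 19.3 CPM in HFD of batch 2. Ddit3, which encodes the stress factor CHOP, had -1.03 and 0.44 (0.0497), Mthfd2, an enzyme of mitochondrial folate metabolism, -0.84 and 1.45 (0.0497), and Tars, the threonyl-tRNA synthetase, -0.59 and 0.62 (0.0402). Tars was at 175 to 243 CPM in ND of batch 1, 117 to 131 CPM in ND of batch 2, and 169 to 210 CPM in HFD of batch 2, and HFD of batch 1 lay from 126 CPM up without reaching 169 CPM, so high and low sets did not overlap. Trib3, Psat1, Slc7a3, Slc1a4, Atf4 and Asns had the same signs and did not pass, with adjusted p-values in edgeR of 0.0516, 0.0611, 0.0602, 0.0804, 0.144 and 0.222.

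Of the 23 ATF4 response genes 15 were at an unadjusted p under 0.05 for the difference between batches, all with HFD relatively higher in batch 2, where the share over all genes was 5.19% in that direction. The list's median diet difference was -0.44 in batch 1 and 0.71 in batch 2, and 21 of 23 members had opposite signs. For 22 chaperones and genes of the unfolded protein response 12 were at that level, with medians of -0.15 and 0.33. For 21 amino acid transporters it was 10, with medians of -0.19 and 0.48, and for 21 glycolysis genes 9, with -0.18 and 0.32. Of p53 targets 7 of 28 were at that level in the other direction, against 5.77% of all genes, and 1 in the same direction as the ATF4 genes. Over treatments and batches together the ATF4 list had a median of 0.10 and 0 of 23 genes at an unadjusted p under 0.05 for diet.

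Promoters of these genes are shown because ATF4 acts through composite C/EBP-ATF elements. The core TGATGNAA, a motif chosen after the data were seen, was searched on both strands in the 250 bases before the RefSeq start. It lay in 4 of the 11 genes past the threshold that had a promoter in the table (Chac1, Herpud1, Tars and Becn2). Becn2 differed between batches in the opposite direction (-1.40) to the other 3. Derl3, Ddit3 and Mthfd2 had a promoter in the table and no match. The core lay in 4 of 22 of the ATF4 list, in 2.42% of the promoters of all genes tested and in 3.91% of all promoters in the table. Only promoters with a match are shown. A match is a description, not a binding site. Chac1 is read at chr2:119350992-119351228 on the + strand, Herpud1 at chr8:94386179-94386428 on the + strand and Tars at chr15:11399666-11399908 on the - strand, with the match in capitals. In all 3 it reads TTGCATCA, which is the core on the other strand, and it begins 193, 112 and 15 bases before the RefSeq start.
Chac1: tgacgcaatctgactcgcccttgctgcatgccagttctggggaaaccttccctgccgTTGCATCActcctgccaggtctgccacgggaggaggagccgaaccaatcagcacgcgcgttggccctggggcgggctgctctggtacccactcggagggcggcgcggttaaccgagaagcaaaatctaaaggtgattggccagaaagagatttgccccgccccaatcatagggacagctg
Herpud1: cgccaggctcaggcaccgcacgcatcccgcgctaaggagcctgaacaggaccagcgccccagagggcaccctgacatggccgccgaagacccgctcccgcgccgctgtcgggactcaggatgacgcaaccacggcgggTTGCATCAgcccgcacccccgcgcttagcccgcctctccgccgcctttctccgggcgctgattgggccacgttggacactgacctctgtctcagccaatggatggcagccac
Tars: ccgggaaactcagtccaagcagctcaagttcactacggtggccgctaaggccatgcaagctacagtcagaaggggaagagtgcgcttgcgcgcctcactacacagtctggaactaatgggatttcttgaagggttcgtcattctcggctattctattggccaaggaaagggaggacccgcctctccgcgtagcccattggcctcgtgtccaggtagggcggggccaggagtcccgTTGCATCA

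The gene of smallest p for the difference between batches was H19, the maternally expressed imprinted noncoding RNA of the Igf2 cluster. It was at 5.26 to 20.8 CPM in ND of batch 1 and 1.27 to 2.11 CPM in ND of batch 2, and at 4.66 to 7.98 CPM and 10.7 to 13.6 CPM in HFD of the 2 batches. The diet difference was -0.73 in batch 1 and 2.98 in batch 2 (difference 3.71, SE 0.38, adjusted p = 0.00157 in edgeR), and ND of batch 2 lay below all other libraries. In the opposite direction stood Ly6a, a surface protein also called Sca-1, with 354 to 544 CPM in ND of batch 1 and 852 to 1106 CPM in ND of batch 2. In HFD it had 872 to 997 CPM in batch 1 and 638 to 791 CPM in batch 2, so the diet difference was 1.08 in batch 1 and -0.47 in batch 2 (adjusted p = 0.00617 in edgeR). Pnliprp2, a lipase, had 1.12 and -0.85. Zfp820, Mier3, Becn2, Hist1h2bc, Ubtfl1 and B020004J07Rik, of which the last 3 have close copies, were also past the threshold with HFD relatively lower in batch 2. H19 and Ly6a remained past it in 20 of 21 alternatives and Derl3 in 20 of 20, while the count of genes ran from 3 to 168 when single libraries were left out, the 168 without HFD_siNampt of batch 2 and the 3 without ND_siNampt of batch 1 or HFD_siNT of batch 2. Without ND_C of batch 1 or of batch 2 it was 41 and 42, without ND_siNT of batch 2 it was 8, without ND_siNampt of batch 2 or HFD_siNT of batch 1 it was 5, without HFD_C of batch 1 it was 9, and without the 3 libraries lowest in Y-linked RNA 150.

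**Figure D5:**
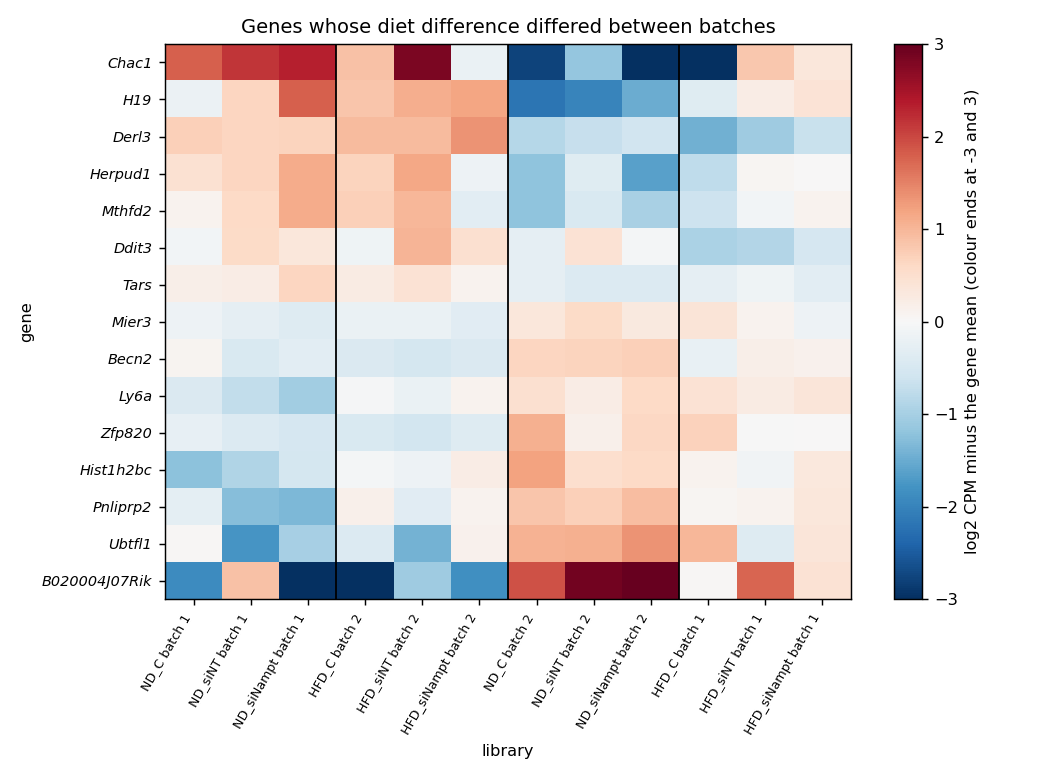
Log2 CPM minus the gene's mean over the libraries (colour) for 15 of the genes whose diet difference differed between batches (rows) in 12 libraries (columns), in 4 blocks of 3: ND batch 1, HFD batch 2, ND batch 2 and HFD batch 1. The top 7 genes are mostly high in the first 6 columns and low in the last 6, and the lower 8 genes mostly the reverse. The genes were picked by the test of that difference, so the pattern follows from the choice.

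Libraries of the same diet and batch deviated together for these genes, which the test by batch had picked for such a pattern. The comparison of diets over all treatments rests on 2 such sets of each diet, and whether the 3 libraries of a set shared a fertilisation or a group of females cannot be told apart from diet and batch with these labels.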

How the data were processed

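Poly(A) RNA of 12 blastocyst pools was sequenced (SMART-Seq v4 PLUS, per the labels). Per the submitters' processing notes, STAR 2.7.10, RSEM 1.2.28 and mm10 were used, and other settings are not given in the sources used here. Per the file headers the deposited values are RSEM expected counts, TPM and FPKM per gene, of which FPKM was not used. Expected counts (6.43% not whole) were rounded. Genes were filtered with filterByExpr (minimum count 10), scaled by TMM and tested with edgeR 4.0.16 (quasi-likelihood, two-sided) in R 4.3.3, in a model of diet, treatment and batch with all 12 libraries. Standard errors are the log2 fold change over the square root of F. CPM values are TMM-scaled, and exact tests used log2 CPM with a prior count of 2. Fits of the interaction and of diet by batch added those terms. Replicate numbers are the batch labels, which pair the libraries. The difference of replicate 1 minus 2, correlated over genes between groups, was 0.092 to 0.220 within a diet and -0.058 to 0.167 between diets. Alternatives included DESeq2 1.42.0, limma 3.58.1 on log2 TPM, other filters, libraries left out and no batch term. The code was run on simulated data in which each library was drawn independently. Such data cannot show how the test behaves when libraries of the same diet and batch deviate together.

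The comparison, the 39 gene lists and the naming rule were chosen with earlier results of these data known. Named are the 20 genes of smallest p, Cyp51, Rbm45, Csta1, Magef1 and Rnf225, up to 3 members per list at an unadjusted p under 0.05, the 5 interaction genes of smallest p and the cholesterol synthesis genes. A few genes that this rule or the test by batch would name are not reported here, and counts and medians include them. Genes named beside these, and those of the test by batch, were chosen after their values were seen. Promoters are RefSeq's (GRCm38.p6) and positions GENCODE M21's (GRCm38).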

Additional observations from a re-analysis of the deposited data

Results flagged for a closer look

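In 12 of 190 groups of 6 libraries tested, 1 library lay far from the others on the log2 CPM scale, with a gap to its neighbour above 0.625 of the group's range. Chance flags about 1 in 20 groups. In HFD_siNampt of batch 2 the low values of Cyp51 (0.631 of the range), Fdps (0.671), Insig1 (0.838) and Usp9y (0.792) stood apart from the other HFD libraries. In HFD_siNampt of batch 1 Xlr4a (0.630), Acat2 (0.682) and Tm7sf2 (0.652) were low and Srebf2 (0.760) was high. Dhcr7 was low in HFD_siNT of batch 2 (0.681). In ND, Fbxo15 was low (0.690) and Nsdhl high (0.701) in ND_siNampt of batch 1, and Has2 was high in ND_C of batch 2 (0.672), at 0.361 CPM.

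For 16 genes the diet difference itself differed between batches by edgeR's adjusted p, each in a test added after the data were seen. With HFD relatively higher in batch 2 these included H19 (adjusted p = 0.00157), Derl3 (0.00255), Herpud1 (0.0338), Chac1 (0.0348), Tars (0.0402), Ddit3 (0.0497) and Mthfd2 (0.0497). With HFD relatively lower in batch 2 these were Ly6a (adjusted p = 0.00617), Zfp820 (0.0338), Pnliprp2 (0.0338), Hist1h2bc (0.0348), Mier3 (0.0402), B020004J07Rik (0.0403), Becn2 (0.0417) and Ubtfl1 (0.0434). For the genes named here 3 of 3 pairs in each batch had the sign of the difference, except for Becn2 in batch 1, with 2 of 3. The test that picked these genes favours such agreement, so the tally is no separate evidence.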

How the results depend on the processing

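Genes past the threshold by diet numbered 15 with no filter, 6 with DESeq2, 1 (Eif3j1) in siNT and siNampt libraries only, 24 within batch 1, 66 within batch 2 and 0 to 1 with single libraries left out (Rbm45 without ND_siNampt of batch 1). Genes at an unadjusted p under 0.05 numbered 344 with a stricter filter, 1698 within batch 2 and 394 to 1005 with single libraries left out, the highest without HFD_C of batch 1. Without the replicate block, the batch term, 0 genes passed and 474 were at an unadjusted p under 0.05, and no call by diet changed. For the interaction 136 passed with no filter, 1 with DESeq2 and 0 to 2 with single libraries left out. At an unadjusted p under 0.05 there were 1009 with no filter, 277 with the stricter filter and 336 to 855 with single libraries left out. For the difference between batches 517 passed with no filter, 300 with DESeq2, 1 and 5 with limma (pseudocounts 1 and 0.1), 34 with GC and length correction, 150 without the 3 libraries lowest in Y-linked RNA (chosen after seeing the data) and 3 to 168 with single libraries left out. The settings also differ in the samples or genes used, and the cause of these shifts was not tested. By diet, edgeR's prior degrees of freedom, the weight given to the spread shared over genes, were 7.39 in the main fit. They were 33.8 with no filter, 17.1 within batch 1 and 6.82 within batch 2. Larger values make single genes pass more easily where their own spread is high.

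Of 39 list medians 28 moved by less than 1 SD of the pairs. Within batch 1 beta-oxidation was -0.19, lipid binding -0.027, mitochondrial dynamics -0.081, apoptosis 0.17 and interferon -0.20. Within batch 2 glycolysis was 0.33 and heat shock 0.051, and antioxidant defence was 0.039 with limma at 0.1. The 2-cell list was -0.47 with the stricter filter, -0.59 in C and siNT, -0.81 within batch 2 and -0.51 to -0.057 with single libraries left out. The oocyte list was -0.067 with the stricter filter and -0.077 in C and siNT. The sperm list was 0.12 with the stricter filter, 0.080 in siNT and siNampt, -0.37 in C and siNT and -0.33 to 0.079 with single libraries left out. The cholesterol lists ranged over all alternatives from 0.15 to 0.26 and from 0.12 to 0.28.

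Of 74 genes named by diet 62 never changed sign. Within batch 1 Gata2 was -0.017, Tdh -0.16, Acat2 -0.026, Pmvk 0.075, Ebp 0.087 and 0610007P14Rik -0.051. Within batch 2 Hmgcs1 was -0.14, Scd2 -0.065, Ggps1 0.045, Fdft1 -0.090, Tm7sf2 0.23 and Dhcr7 -0.14. Pmvk was 0.011 and 0.012 with limma at 1 and 0.1, 0.012 in C and siNT, 0.044 without the 3 libraries, and -0.066 to 0.012 with single libraries left out. Tm7sf2 was 0.0068 with limma at 1, 0.22 in C and siNT and -0.13 to 0.14 with single libraries left out. 0610007P14Rik was -0.040 in siNT and siNampt and -0.0057 without the 3 libraries. Depth limits scarce genes such as Ttr and Has2, and expected counts limit near-identical copies.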
